A study of Mus musculus with 21 samples.

Results

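B220+ Bach2-vector cells were compared with freshly sorted wild-type (WT) common lymphoid progenitors (CLPs), to ask how far cells kept under B-lineage culture conditions and sorted on B220 resemble the natural progenitors. The comparison uses 6 of the 21 arrays of the series, 3 of B220+ Bach2-vector cells and 3 of WT CLPs, chosen by their sample titles. The series as a whole studied Bach1 and Bach2, related transcription repressors, on mouse gene expression arrays in 7 groups of 3.

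The B220+ cells began as multipotent progenitors (MPPs) of WT mice, which were lineage-negative, c-kit+, Sca-1+ and intermediate for Flt3. Cells of 4 mice were pooled per experiment and kept overnight with the cytokines SCF (50 ng/ml), IL-3 (5 ng/ml) and IL-6 (10 ng/ml). They were spin-infected the next day with a retrovirus carrying Bach2 and GFP. They then spent 24 h in a multilineage condition and 6 days in a B-lineage condition, and cells positive for GFP and for B220 were sorted. B220 is a form of the surface phosphatase CD45, encoded by Ptprc, that marks B-lineage cells and some dendritic and NK cells. The WT CLPs came from pooled bone marrow of WT mice that received no vector and no culture. Lineage-positive cells, B220+ ones included, were first partly depleted on beads, and CLPs were sorted on Sca-1, CD135 (Flt3), CD117 (c-kit) and CD127 (the IL-7 receptor chain Il7r). Neither age nor sex of the animals is stated in the labels. Where values of MPPs are given beside these, they are of GFP+ cells of the same starting population, sorted after 2 days of multilineage culture with the Bach2 vector or a control vector that carries GFP alone. RNA of all 4 groups went through 2 rounds of amplification. The 2 groups compared thus differ in starting cell, vector, cytokines, days in culture and sort gate, and what each contributes to a difference cannot be told apart.

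CLPs are bone marrow progenitors that can still give B, T, NK and some dendritic cells, and they depend on the receptors for IL-7 and Flt3 ligand. Entry into the B lineage runs through the transcription factors E2A (Tcf3), Ebf1, Foxo1 and Pax5, which turn on the recombinases Rag1 and Rag2, the terminal transferase Dntt and the surrogate light chain that pairs with the first immunoglobulin heavy chains. Bach2, with Bach1, is known as a repressor of myeloid genes in progenitors, and Bach2 is active through much of B-cell life.

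A level here is the log2 of a spot's processed signal minus the log2 75th percentile of its array, so that 0 is the 75th percentile and a difference of 1 is a 2-fold change. That percentile was 2071 to 2283 signal units on the B220+ arrays, against 2999 to 5127 on the WT CLP arrays, and 62.6% to 71.5% of spots were well above background, against 69.8% to 80.0%. Levels of different genes come from different probes and were not set against each other. The 3 B220+ arrays lay on 1 slide, which held none of the WT CLP arrays, and the WT CLP arrays lay on 3 other slides, so slide and group cannot be told apart. Arrays numbered as replicates stand for separate sorts as far as the labels say, and p-values measure the spread between them. Array number 3 of either group stood apart in part. On B220+ array 3 the Y-linked Ddx3y had a level of -8.69, against 1.59 and 1.28 on the other B220+ arrays, and mast-cell and basophil genes were higher than on the others. On WT CLP array 3 the neutrophil gene S100a8 had a level of 2.20, against -7.67 and -7.54 on the other WT CLP arrays, so results on granulocyte and mast-cell genes are given with and without these arrays.

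Of 16244 named genes tested, 1577 (9.71%) passed at an adjusted p under 0.05 in limma's moderated test with Benjamini-Hochberg adjustment over all 40701 probes. There were 583 genes (3.59%) higher in B220+ cells than in WT CLPs and 994 genes (6.12%) lower. Over probes, 2870 of 40701 (7.05%) passed, 947 (2.33%) higher and 1923 (4.72%) lower. Each of the 1577 genes had groups that did not overlap, as did 5763 of all genes tested (35.5%), 2463 of them higher (15.2%) and 3300 lower (20.3%). The genes that passed were at least 2.46-fold higher or 2.44-fold lower, and the median 95% interval of a gene's log2 difference reached 0.92 to each side, so smaller differences were mostly not detectable with 3 arrays a group. The median log2 difference over all genes was -0.06. The split between directions moved with the background correction: 37.0% of the genes that passed were higher with the processed signal, and 49.1% with normexp correction of the raw signal. Without WT CLP array 2 the number of genes that passed was 687, against 1577 with it; without B220+ array 1, B220+ array 2, WT CLP array 1 or WT CLP array 3 it was 936, 1020, 1046 and 766.

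**Figure D1:**
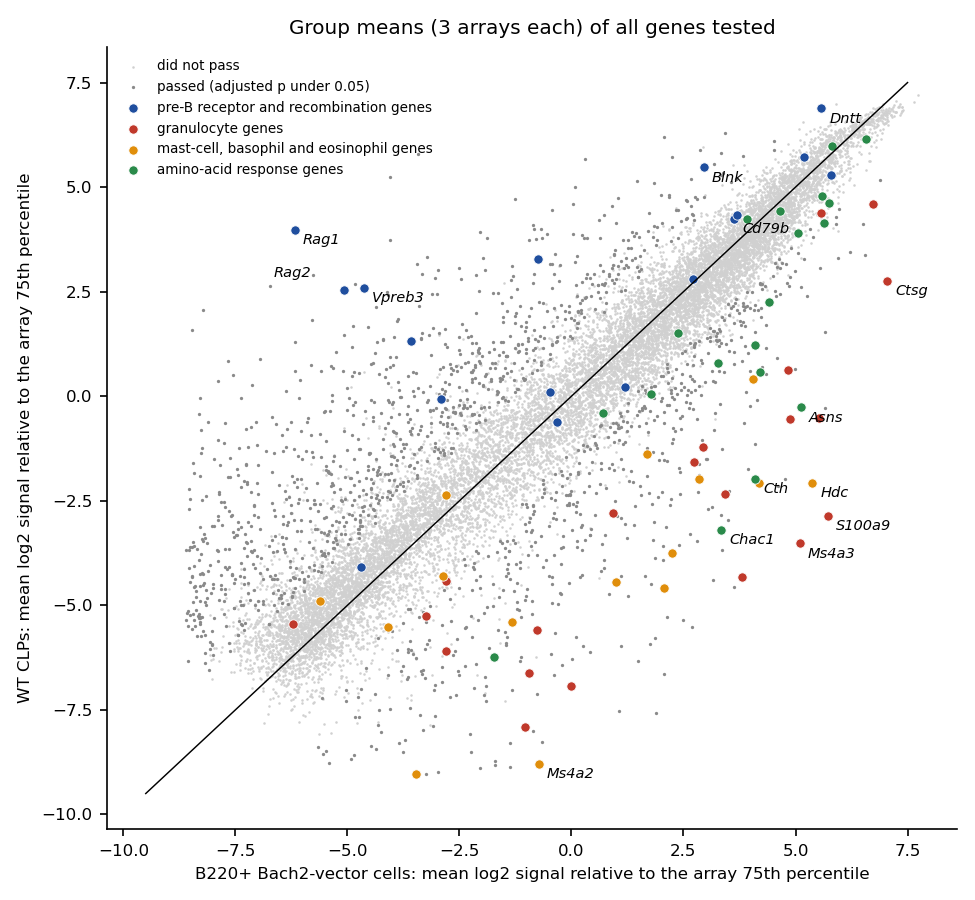
Mean level of 16244 genes in B220+ Bach2-vector cells (x axis) and in WT CLPs (y axis), each the mean of 3 arrays in log2 units relative to the array's 75th percentile, with the line of equality. Coloured genes are pre-B receptor and recombination genes, which lie above the line where they differ (Rag1, Rag2, Vpreb3), and granulocyte, mast-cell and amino-acid response genes, which lie below it (Ms4a3, Hdc, Cth).

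The MPP groups were set against the same WT CLP arrays, which these comparisons share. Bach2-vector MPPs differed from WT CLPs in 2545 of 16722 genes (15.2%), with 1340 higher (8.01%) and 1205 lower (7.21%). Control-vector MPPs differed in 3495 of 16716 (20.9%), with 1860 higher (11.1%) and 1635 lower (9.78%). Counts of genes that passed depend on the spread within each group, so they do not rank the groups by distance from WT CLPs. B220+ cells differed from Bach2-vector MPPs in 395 of 16167 genes (2.44%), with 150 higher (0.928%) and 245 lower (1.52%), and from control-vector MPPs in 1056 of 16151 (6.54%), with 465 higher (2.88%) and 591 lower (3.66%). Spearman correlations between single arrays over 15937 genes had a median of 0.957 for B220+ cells with Bach2-vector MPPs and 0.949 with control-vector MPPs. With WT CLPs the median was 0.922, between 0.902 and 0.946 over 9 pairs. B220+ arrays correlated with each other at 0.957 to 0.990, with a median of 0.963. WT CLP arrays correlated with each other at 0.969 to 0.986. Their median was 0.931 with Bach2-vector MPPs and 0.922 with control-vector MPPs, the latter the same to 3 digits as with B220+ cells. These are descriptions over genes, and arrays of 1 experiment share culture and slides: the B220+ arrays share their slide with array 1 of each MPP group.

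The gene lists divided by lineage. Lists of B-cell, lymphoid and stem-cell genes held members lower in B220+ cells, whereas granulocyte, monocyte and mast-cell lists held members that were higher. Of the 10 markers used to check the label for B-cell precursors, all 10 were well above background on the 3 WT CLP arrays and 7 on the 3 B220+ arrays; 7 were lower in B220+ cells, among them Ebf1, Vpreb1, Vpreb3, Igll1, Rag1 and Blnk; 0 were higher, and Pax5, Cd79a and Cd79b did not pass. Of 7 lymphoid progenitor markers, all 7 were well above background on all arrays of both groups; Il7r and Flt3 were lower in B220+ cells, and Dntt, Kit, Ly6a, Satb1 and Notch1 did not pass. Il7r, Flt3, Kit and Ly6a encode antigens on which WT CLPs were sorted, so their differences are not counted as a finding. Since 7 of the 10 B-cell precursor markers were lower, the B220+ cells are named here by their sort and vector. In a bulk sample, fewer cells of a type and less RNA per cell cannot be told apart.

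**Figure D2:**
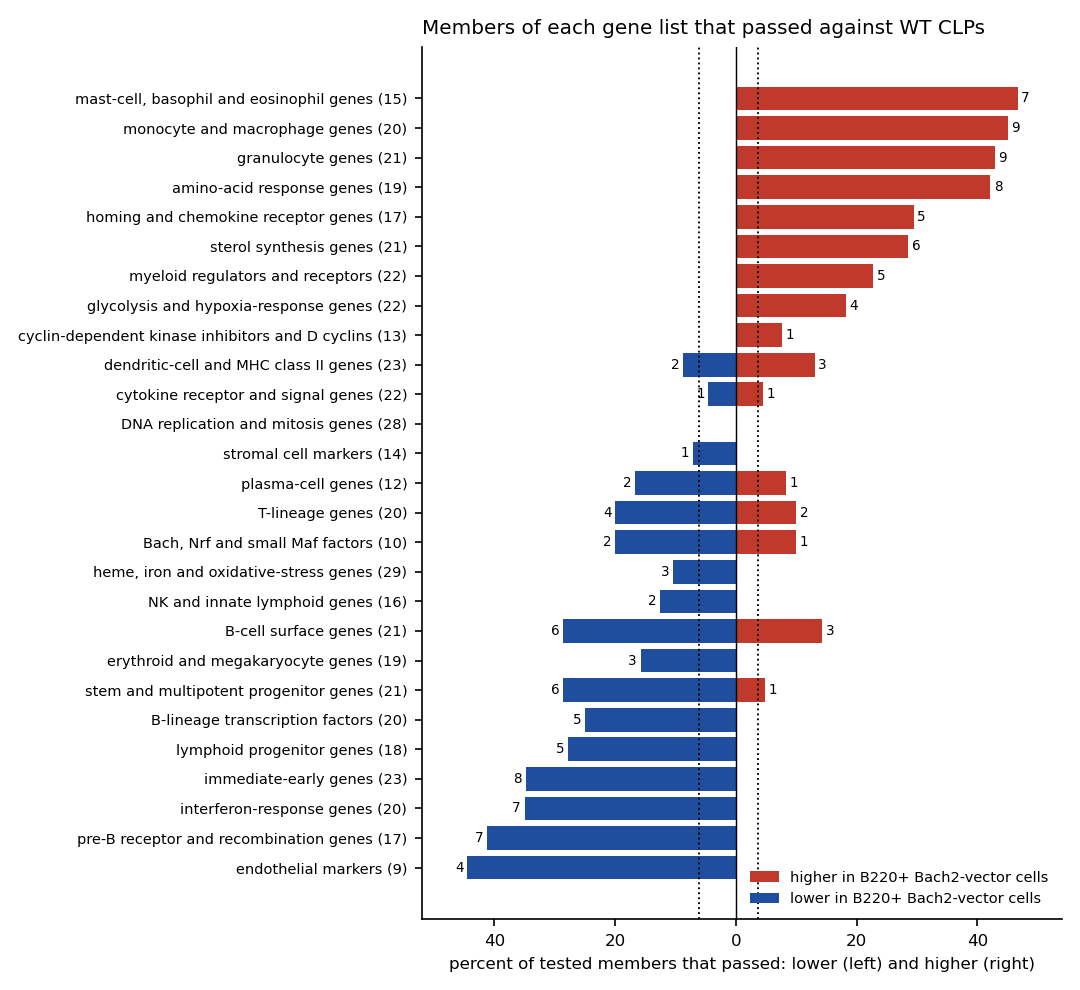
Share of the tested members of 27 gene lists that were lower (left, blue) or higher (right, red) in B220+ Bach2-vector cells than in WT CLPs at an adjusted p under 0.05, in percent, with counts at the bar ends and the number tested in brackets. Dotted lines mark the shares over all genes, 6.12% lower and 3.59% higher; the granulocyte, monocyte and mast-cell bars run only to the right and the pre-B bar only to the left.

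The recombinase and surrogate light chain genes were lower in B220+ cells than in WT CLPs. Of 17 pre-B receptor and recombination genes tested, 7 (41.2%) were lower and 0 higher in B220+ cells, with a median log2 difference of -0.64. Rag1, a subunit of the recombinase that cuts immunoglobulin gene segments, had levels of -5.24, -4.39 and -8.90 in B220+ cells, against 3.72, 4.24 and 3.99 in WT CLPs. Rag2, its partner, had levels of -4.58, -4.43 and -6.21 in B220+ cells, against 2.56, 2.17 and 2.92 in WT CLPs. All B220+ arrays were far below all WT CLP arrays for both, with log2 differences of -10.16 ± 1.04 (SE, adjusted p = 0.00167) for Rag1 and -7.62 ± 0.52 (adjusted p = 0.000409) for Rag2. Rag1 was well above background on 2 of the 3 B220+ arrays. Vpreb1 encodes a part of the surrogate light chain, and Vpreb3 a related protein of B-cell precursors. Vpreb3 had levels of -4.04, -4.60 and -5.25 in B220+ cells, against 3.41, 1.98 and 2.41 in WT CLPs. Vpreb1 had levels of -0.71, 0.37 and -1.90 in B220+ cells, against 3.46, 3.18 and 3.22 in WT CLPs. The groups did not overlap for either, and Vpreb3 was 150-fold lower (adjusted p = 0.000401) and Vpreb1 16.3-fold lower (adjusted p = 0.00588). Igll1, the other surrogate light chain part, was 7.17-fold lower (adjusted p = 0.00387), and Vpreb2, a close copy of Vpreb1 whose probe may share transcripts with it, had a log2 difference of -4.90 (adjusted p = 0.00892). The 7 lower genes became 5 without WT CLP array 2, when Vpreb2 and Blnk no longer passed.

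Other early B-lineage genes were present in B220+ cells, closer to the WT CLP level and well above the MPP level. Dntt, the terminal transferase that adds bases at immunoglobulin joints, had levels of 5.41, 5.67 and 5.65 in B220+ cells, against 7.01, 7.24 and 6.41 in WT CLPs. The groups did not overlap, and the log2 difference of -1.31 ± 0.34 did not pass (95% interval -2.11 to -0.52, adjusted p = 0.0636). It passed with quantile normalization (adjusted p = 0.0197), normexp correction (0.0261), a variance trend (0.0231) and all 15 CLP and MPP arrays in the fit (0.00951). It did not pass with median centring (0.0808) or the mean of a gene's probes (0.0596). In MPPs after 2 days of culture, Dntt had levels of -1.35, -1.14 and -1.28 with the Bach2 vector and -1.93, -1.22 and -1.51 with the control vector. B220+ cells were higher than Bach2-vector MPPs by 6.83 ± 0.25 on the log2 scale (adjusted p = 0.000884), and higher by 6.93 than the Bach2-vector array of their own slide. Blnk, the adaptor that couples the pre-B receptor to its kinases, had levels of 3.23, 3.23 and 2.39 in B220+ cells, against 6.18, 5.25 and 5.00 in WT CLPs. It was 5.76-fold lower than in WT CLPs (adjusted p = 0.0147) and at the same time higher than in Bach2-vector MPPs by 4.59 ± 0.74 (adjusted p = 0.0352) and than in control-vector MPPs by 7.34 ± 0.33 (adjusted p = 0.00128), on the log2 scale. Ly6d, a surface antigen that marks the B-cell-biased CLPs, showed the same order: levels were 3.83, 3.77 and 2.66 in B220+ cells, -1.94, -3.62 and -3.02 in Bach2-vector MPPs, and 6.82, 6.36 and 5.69 in WT CLPs. Its log2 difference was -2.87 ± 0.46 to WT CLPs (adjusted p = 0.0112) and 6.28 ± 0.53 to Bach2-vector MPPs (adjusted p = 0.00497). Against WT CLPs, neither Blnk nor Ly6d passed without WT CLP array 2. Spib, an Ets factor of B and plasmacytoid dendritic cells, had levels of 1.40, 1.03 and 0.78 in B220+ cells, against 2.72, 0.64 and 1.57 in WT CLPs. The groups overlapped and the difference did not pass (-0.57 ± 0.54, 95% interval -1.82 to 0.67, adjusted p = 0.564), whereas B220+ cells were above Bach2-vector MPPs by 3.84 ± 0.52 (adjusted p = 0.0196).

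**Figure D3:**
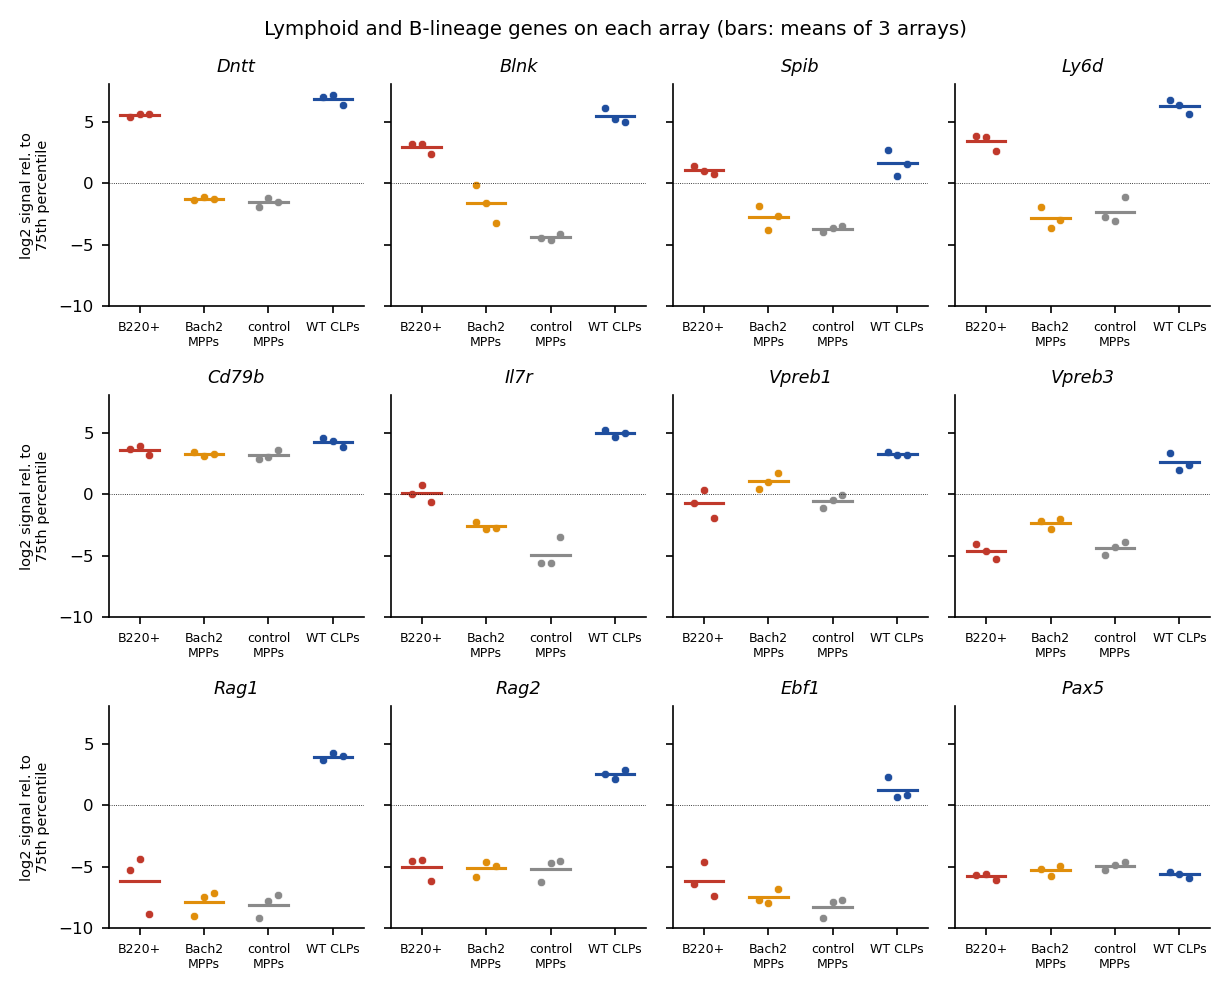
Levels of 12 lymphoid and B-lineage genes on each array (points) with group means (bars), in log2 units relative to the array's 75th percentile, for B220+ Bach2-vector cells, Bach2-vector MPPs, control-vector MPPs and WT CLPs. Dntt, Blnk, Ly6d and Spib stand above both MPP groups in B220+ cells, whereas Rag1, Rag2, Vpreb3 and Ebf1 stand far below WT CLPs.

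Rag2, Vpreb3 and Vpreb1 did not show this order. Rag2 in B220+ cells differed from Bach2-vector MPPs by 0.07 (adjusted p = 0.955) and from control-vector MPPs by 0.12 (adjusted p = 0.922) on the log2 scale. Vpreb3 was lower in B220+ cells than in Bach2-vector MPPs, by 2.29 on the log2 scale (adjusted p = 0.0455), where its levels were -2.21, -2.80 and -2.03. Vpreb1 differed from Bach2-vector MPPs by -1.82 (adjusted p = 0.195). Rag1 averaged -6.18 in B220+ cells, -7.88 in Bach2-vector MPPs and -8.12 in control-vector MPPs. It was well above background on 2, 1 and 0 of the 3 arrays of these groups. Igll1 averaged -2.91, -3.35 and -3.32 in the same order. Neither was among the genes that passed as higher than in Bach2-vector MPPs. Of the pre-B and recombination list, 3 of 17 tested genes were higher and 1 lower than in Bach2-vector MPPs (0.928% and 1.52% of all genes). Against control-vector MPPs, 3 of 16 were higher and 0 lower (2.88% and 3.66% of all genes). The higher ones were Dntt, Blnk and Bank1, a scaffold of B-cell receptor signalling. Cd79b, a signalling chain of the B-cell receptor, had levels of 3.72, 3.93 and 3.24 in B220+ cells, against 4.58, 4.33 and 3.84 in WT CLPs, with a difference of -0.62 that did not pass (95% interval -1.45 to 0.21, adjusted p = 0.343).

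Of the transcription factors of the B lineage, 5 of 20 tested (25.0%) were lower in B220+ cells and 0 higher, with a median log2 difference of -0.22. Ebf1, which specifies the B lineage, had levels of -6.41, -4.66 and -7.41 in B220+ cells, against 2.34, 0.70 and 0.83 in WT CLPs. It was well above background on 1 of 3 B220+ arrays and on none of the 6 MPP arrays, and its log2 difference to WT CLPs was -7.45 ± 0.75 (adjusted p = 0.00151). Pou2af1, a coactivator of octamer-binding factors at immunoglobulin genes, had levels of -5.59, -5.31 and -5.07 in B220+ cells, against 0.91, 0.07 and 1.04 in WT CLPs (difference -6.00 ± 0.38, adjusted p = 0.00034). Ets1, an Ets factor of lymphocytes, was lower by 4.44 on the log2 scale (adjusted p = 0.000837), with B220+ levels of -0.99, -0.37 and -0.58, against 3.35, 4.37 and 3.65 in WT CLPs. The other lower factors were Zfp521 (difference -2.41, adjusted p = 0.0126), a zinc finger protein that binds Ebf1, and Ikzf1 (difference -1.68, adjusted p = 0.0411), the lymphoid factor Ikaros. Without B220+ array 1 or WT CLP array 3, Zfp521 and Ikzf1 no longer passed, and Ikzf1 was also lost without any of the others but B220+ array 2. Irf4, a factor of B and dendritic cells, was higher by 1.56 without passing (adjusted p = 0.0562). It passed with quantile normalization (0.0453), normexp correction (0.0313), median centring (0.0478) and all 15 CLP and MPP arrays in the fit (0.0331). With a variance trend (0.0599) or the mean of a gene's probes (0.053) it did not pass. Pax5, the factor that commits cells to the B lineage, was low in both groups, at -5.71, -5.63 and -6.07 in B220+ cells and -5.41, -5.59 and -5.92 in WT CLPs. Its difference did not pass (-0.16, 95% interval -0.91 to 0.58, adjusted p = 0.8). Tcf3, which encodes the E2A proteins, averaged 4.61 ± 0.36 in B220+ cells and 4.36 ± 0.58 in WT CLPs (SD, n = 3 each) and did not pass either. Foxo1, a forkhead factor needed for Rag expression, averaged 0.76 ± 0.26 in B220+ cells, against 2.09 ± 0.34 in WT CLPs, without overlap and without passing (adjusted p = 0.0573).

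Bach2 itself has 2 probes that gave opposite differences. The brighter one had levels of -2.75, -2.49 and -4.10 in B220+ cells, against 3.46, 1.49 and 2.38 in WT CLPs, a difference of -5.56 ± 0.62 (adjusted p = 0.00229). The dimmer one had levels of -5.12, -5.02 and -1.54 in B220+ cells, against -5.28, -7.97 and -7.08 in WT CLPs, where it was well above background on 1 array, a difference of 2.89 ± 1.06 that did not pass (adjusted p = 0.152). In the MPPs the dimmer probe averaged -2.91 ± 1.44 with the Bach2 vector and -7.34 ± 1.13 with the control vector, beside -3.89 ± 2.04 in B220+ cells (SD, n = 3 each), differences that were not tested. As the mean of both probes Bach2 did not pass (difference -1.34, adjusted p = 0.236). Where either probe lies in the Bach2 transcript or the vector's insert is not known here, so vector and cellular transcripts cannot be told apart. The brighter probe did not separate B220+ cells from Bach2-vector MPPs (difference -1.27, adjusted p = 0.277) or control-vector MPPs (-0.12, adjusted p = 0.914). Bach1 had levels of 1.67, 2.30 and -0.15 in B220+ cells, against 1.87, 1.96 and 2.17 in WT CLPs, with a difference of -0.73 ± 0.61 (adjusted p = 0.514). Among 10 Bach, Nrf and small Maf factors tested, Bach2 and Nfe2l3 were lower and the erythroid factor Nfe2 was higher (difference 2.04, adjusted p = 0.0409), a call that held only with all 6 arrays or without B220+ array 3, and Nfe2l3 was lost without WT CLP array 3.

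Surface and receptor genes of lymphoid progenitors were lower as well. Of 18 lymphoid progenitor genes tested, 5 (27.8%) were lower and 0 higher in B220+ cells, with a median log2 difference of -0.96. The 5 became 3 when any of the WT CLP arrays was left out. Without Il7r and Flt3, on which cells were sorted, 3 of 16 (18.8%) were lower and 0 higher, with a median of -0.82. Il7r had levels of 0.07, 0.79 and -0.65 in B220+ cells, against 5.28, 4.71 and 5.02 in WT CLPs, and was 30.5-fold lower (adjusted p = 0.000886). Flt3 was lower by 1.58 (adjusted p = 0.034). Since WT CLPs were sorted on Il7r and Flt3 protein, these differences are not counted as a finding. In B220+ cells Il7r was still above Bach2-vector MPPs, whose levels were -2.25, -2.85 and -2.72, by 2.68 ± 0.42 (adjusted p = 0.0328). Outside the gates, Ccr9, a chemokine receptor of thymus-seeding progenitors, had levels of -3.16, -2.88 and -3.49 in B220+ cells, against 1.82, 1.22 and 1.36 in WT CLPs, and was 24.9-fold lower (adjusted p = 0.000484). Lax1, an adaptor that dampens lymphocyte receptor signals, was lower by 3.27 (adjusted p = 0.00323) on the log2 scale. Flt3 was among the genes lost when a WT CLP array was left out, and it passed only with all 6 arrays.

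B-cell surface genes went both ways. Of 21 tested, 6 were lower (28.6%) and 3 higher (14.3%) in B220+ cells, against 6.12% and 3.59% of all genes. The 6 became 3 without WT CLP array 2 or 3, and the 3 became 1 without B220+ array 1 or WT CLP array 3. Fcmr, the IgM Fc receptor, fell by 2.98 on the log2 scale (adjusted p = 0.00246), and Tnfrsf13c, the BAFF receptor, by 2.49 (adjusted p = 0.00783). Tnfrsf13c levels were -0.12, -0.04 and -1.02 in B220+ cells, against 2.85, 2.82 and 3.11 in Bach2-vector MPPs, a difference that passed too (-3.32, adjusted p = 0.00908). The higher genes were Cd2, Cd40 and Ptprc, which encodes the B220 used for the sort and passed only with all 6 arrays. Cd2, an adhesion receptor of lymphocytes, had levels of 1.51, 1.98 and 4.00 in B220+ cells, against -3.96, -8.29 and -3.82 in WT CLPs, and was 231-fold higher (adjusted p = 0.00999). It was also higher than in Bach2-vector MPPs, by 10.32 ± 0.84 on the log2 scale (adjusted p = 0.00461), where it was well above background on 1 of 3 arrays. Among 12 plasma-cell genes, Mzb1, a chaperone of marginal zone B and plasma cells, was lower by 6.21 (adjusted p = 0.000376) and Prdm1, the plasma-cell regulator Blimp-1, by 2.56 (adjusted p = 0.0376), while Fkbp11 was higher by 2.32 (adjusted p = 0.0468). Prdm1 and Fkbp11 were both lost without B220+ array 1 or any WT CLP array.

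Some stem-cell and multipotent progenitor genes were lower in B220+ cells. Of 21 tested, 6 (28.6%) were lower and 1 higher, with a median log2 difference of -0.84. The 6 became 4 without B220+ array 1, B220+ array 2 or any WT CLP array. Hlf, a leucine zipper factor of stem cells, had levels of -3.32, -3.65 and -3.38 in B220+ cells, against -0.39, -0.22 and -0.40 in WT CLPs (difference -3.11 ± 0.30, adjusted p = 0.00123). Mycn, a Myc family factor of early progenitors, had levels of 0.47, 0.97 and 1.28 in B220+ cells, against 3.73, 5.30 and 4.61 in WT CLPs (difference -3.64 ± 0.47, adjusted p = 0.00435). Both separated the groups fully, and both were also lower in B220+ cells than in Bach2-vector MPPs, Hlf by 2.24 (adjusted p = 0.0213) and Mycn by 3.72 (adjusted p = 0.0196) on the log2 scale. Prdm16 (difference -3.74) and Meis1 (-2.45), both regulators of stem-cell maintenance, were lower, and Gata2, a factor of stem and mast cells, was higher by 4.25 (adjusted p = 0.0387), with B220+ levels of 0.54, -0.35 and 3.42, highest on array 3. Gata2 did not pass without B220+ array 1 or any WT CLP array.

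Granulocyte genes were higher in B220+ cells than in WT CLPs. Of 21 tested, 9 (42.9%) were higher and 0 lower, with a median log2 difference of 4.32 and 20 of 21 differences above 0. Without B220+ array 3, 10 were higher. Without WT CLP array 3, 16 were higher. The summed level of the list was 478 to 612 in B220+ cells, against 55.1, 56.8 and 109 on WT CLP arrays 1, 2 and 3. Prtn3, proteinase 3 of primary granules, had levels of 3.14, 3.08 and 4.09 in B220+ cells, against -2.88, -2.24 and -1.87 in WT CLPs (difference 5.76 ± 0.43, adjusted p = 0.000496). Elane, neutrophil elastase, had levels of 5.18, 4.29 and 5.01 in B220+ cells, against 0.49, 0.56 and 0.86 in WT CLPs (difference 4.19 ± 0.36, adjusted p = 0.000767). Ms4a3, a membrane protein of granulocyte-monocyte progenitors, had levels of 5.15, 5.16 and 4.95 in B220+ cells, against -5.27, -3.35 and -1.91 in WT CLPs, and was 388-fold higher (adjusted p = 0.000908). In each case the lowest B220+ array lay above the highest WT CLP array. Ctsg, cathepsin G, was 19.4-fold higher (adjusted p = 0.00111), and Mpo, myeloperoxidase, 4.38-fold higher (adjusted p = 0.00606), with Mpo levels of 6.69, 6.59 and 6.90 in B220+ cells, against 4.72, 4.53 and 4.55 in WT CLPs. Camp, a secondary granule peptide, had levels of 2.66, 3.62 and 2.51 in B220+ cells, against -4.51, -3.27 and 4.17 in WT CLPs. There WT CLP array 3 was higher than any B220+ array, the groups overlapped and the difference of 4.14 ± 1.99 did not pass.

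Set against the MPPs, granulocyte genes gave differences in both directions, and those named here were chosen after their values were seen. Elane in B220+ cells differed from Bach2-vector MPPs, at 5.88, 3.06 and 3.96, by 0.53 (adjusted p = 0.696), and from control-vector MPPs by -0.22 (adjusted p = 0.827). Ms4a3 was lower than in control-vector MPPs by 1.38 (adjusted p = 0.0405) and Prtn3 by 2.04 (adjusted p = 0.0291) on the log2 scale, while their differences from Bach2-vector MPPs, -1.01 (adjusted p = 0.12) and -1.70 (adjusted p = 0.0726), did not pass. Camp was higher than in Bach2-vector MPPs, at -2.79, -4.37 and -1.74, by 5.90 ± 0.68 (adjusted p = 0.0122), and Ngp, another secondary granule gene, by 6.28 (adjusted p = 0.00768). Both were also higher than in control-vector MPPs, Camp by 4.84 (adjusted p = 0.0107) and Ngp by 5.85 (adjusted p = 0.0121). Against Bach2-vector MPPs, 5 of 21 granulocyte genes were higher and 0 lower (0.928% and 1.52% of all genes). Against control-vector MPPs, 5 were higher and 4 lower (2.88% and 3.66% of all genes).

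Monocyte and macrophage genes were higher too, with 9 of 20 tested (45.0%) higher and 0 lower and a median log2 difference of 1.55. Cd14, the coreceptor for bacterial lipopolysaccharide, had levels of 2.23, 1.99 and 1.91 in B220+ cells, against -3.63, -3.51 and -3.62 in WT CLPs (difference 5.64 ± 0.29, adjusted p = 0.000272). Spp1, the secreted protein osteopontin, had levels of 4.50, 4.58 and 4.78 in B220+ cells, against -2.34, -1.60 and -2.52 in WT CLPs, and was 109-fold higher (adjusted p = 0.000272). Ccr2, the chemokine receptor by which monocytes leave the marrow, was 71.8-fold higher (adjusted p = 0.000922), with B220+ levels of 3.43, 3.57 and 3.01, against -2.64, -3.99 and -1.86 in WT CLPs. All 3 genes differed between the groups by far more than the spread within them. Cd14 averaged 2.05 in B220+ cells, 0.62 in Bach2-vector MPPs and 2.22 in control-vector MPPs. In the same order, Spp1 averaged 4.62, 3.59 and 2.38, and Ccr2 3.34, 2.54 and 2.95. Fcgr1, the high-affinity IgG receptor, was higher by 4.49 (adjusted p = 0.000633), and Adgre1, the macrophage antigen F4/80, by 5.94. Csf1r, the receptor for macrophage colony-stimulating factor, had nearly the same mean level in both groups, 3.78 ± 0.31 in B220+ cells and 3.68 ± 0.55 in WT CLPs (95% interval of the difference -0.80 to 1.00). Without WT CLP array 2, 6 monocyte genes were higher. Against Bach2-vector MPPs, 2 of 21 monocyte genes were higher in B220+ cells and 0 lower (0.928% and 1.52% of all genes). Against control-vector MPPs, 1 of 22 was higher and 3 lower (2.88% and 3.66% of all genes).

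Of 22 myeloid regulators and receptors tested, 5 (22.7%) were higher and 0 lower. Cebpe, a factor of late granulocyte development, had levels of 4.62, 4.35 and 5.35 in B220+ cells, against -2.29, -3.01 and -0.65 in WT CLPs (difference 6.75 ± 0.62, adjusted p = 0.00104). Cebpa, which opens the granulocyte and monocyte path, had levels of 1.49, 1.20 and 1.40 in B220+ cells, against -3.19, -1.66 and -1.30 in WT CLPs (difference 3.41 ± 0.51, adjusted p = 0.00819). Both were above all WT CLP arrays on each B220+ array, and Cebpe in B220+ cells differed from Bach2-vector MPPs by 0.67 (adjusted p = 0.393). Csf3r, the receptor for granulocyte colony-stimulating factor, averaged 6.70 ± 0.30 in B220+ cells and 6.48 ± 0.33 in WT CLPs. Irf8, a factor of monocytes, dendritic cells and B cells, averaged 5.65 ± 0.39 in B220+ cells and 6.28 ± 0.43 in WT CLPs, and neither gene passed. The 5 higher genes became 2 without WT CLP array 2 and 3 without B220+ array 1, B220+ array 2 or WT CLP array 3.

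Genes of mast cells, basophils and eosinophils were the third myeloid group that was higher, with 7 of 15 tested (46.7%) higher and 0 lower and a median log2 difference of 4.84. The summed level of this list was 80.9, 72.3 and 231.5 on B220+ arrays 1, 2 and 3, against 3.72, 2.52 and 12.2 on the WT CLP arrays, so that array 3 was highest in each group. Hdc, which makes histamine, had levels of 4.91, 5.42 and 5.81 in B220+ cells, against -2.23, -2.20 and -1.78 in WT CLPs (difference 7.45 ± 0.36, adjusted p = 0.000272). Mcpt8, a basophil protease, had levels of 3.68, 3.62 and 5.25 in B220+ cells, against -2.15, -1.15 and -2.89 in WT CLPs (difference 6.25 ± 0.60, adjusted p = 0.00125). Both genes were high on all 3 B220+ arrays, and both passed without B220+ array 3 and without WT CLP array 3. Ms4a2, the beta chain of the IgE receptor, was not well above background on any WT CLP array and was at least 64.5-fold higher in B220+ cells (adjusted p = 0.00138), where "at least" sets the mean of B220+ cells against the lowest level that counts as well above background on the WT CLP arrays. The alpha chain, Fcer1a, varied between B220+ arrays, at 3.25, -1.59 and 5.05, and did not pass (adjusted p = 0.062). Hdc levels in Bach2-vector MPPs were 3.71, 4.05 and 4.06 and in control-vector MPPs 1.15, 1.66 and 1.81, and B220+ cells were higher than the control-vector cells by 3.84 (adjusted p = 0.00359) and not by an amount that passed than Bach2-vector cells (1.44, adjusted p = 0.0916). Prg2, the eosinophil major basic protein, was higher than in Bach2-vector MPPs by 9.21 (adjusted p = 0.00226) on the log2 scale. Without WT CLP array 2, 4 genes of the list passed, and 9 did without B220+ array 3 and 6 without WT CLP array 3.

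**Figure D4:**
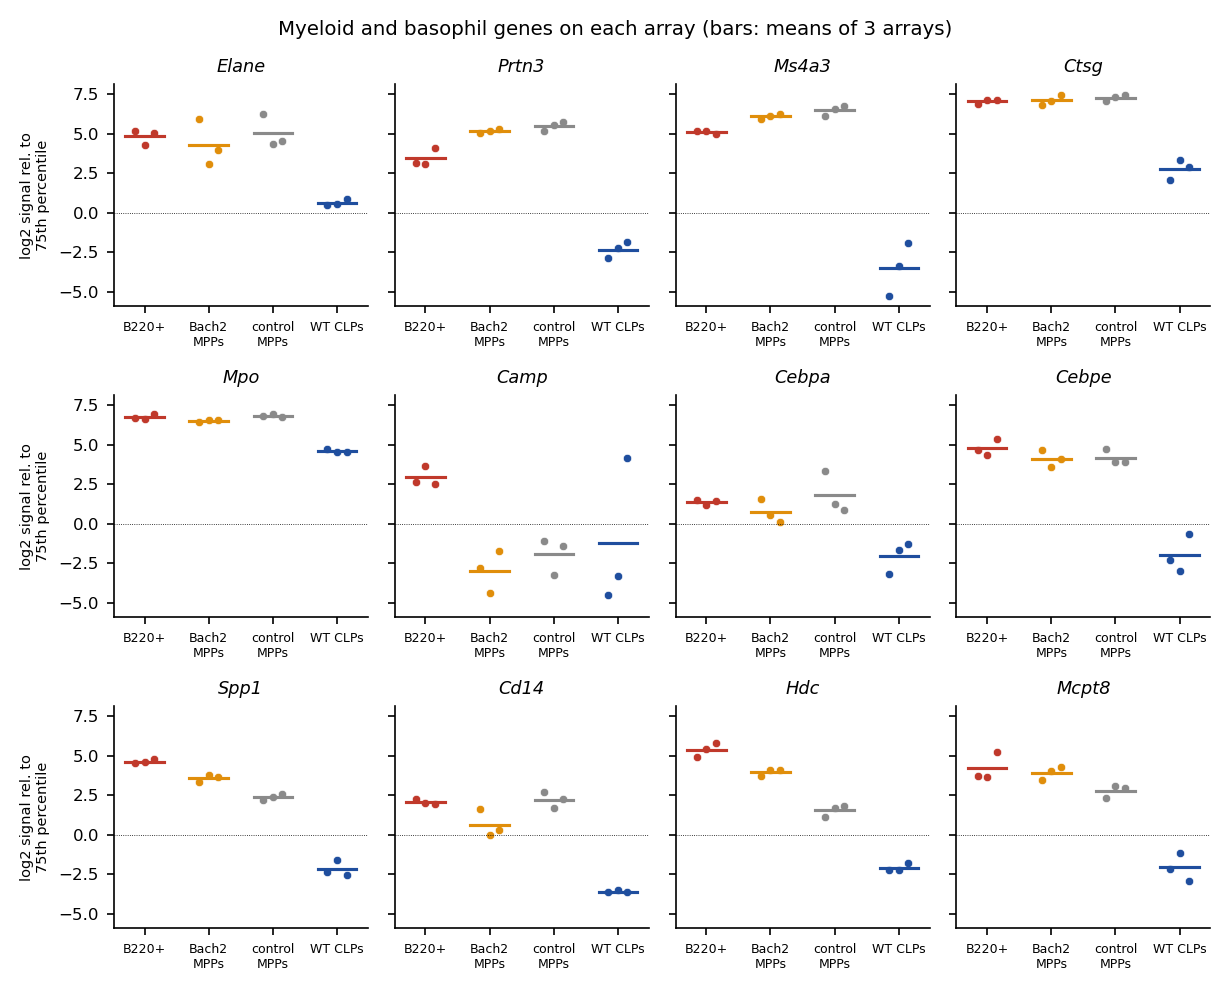
Levels of 12 myeloid genes on each array (points) with group means (bars), in log2 units relative to the array's 75th percentile, for B220+ Bach2-vector cells, Bach2-vector MPPs, control-vector MPPs and WT CLPs. Elane, Prtn3, Ms4a3 and Cebpe are high in all 3 cultured groups and lower in WT CLPs, and Camp is high on all 3 B220+ arrays and on WT CLP array 3.

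Lists of other lineages held members in both directions, where 3.59% of all genes were higher and 6.12% lower. Of 23 dendritic-cell and MHC class II genes tested, 3 were higher and 2 lower in B220+ cells. Cd74, the invariant chain that guides MHC class II molecules, had levels of 3.49, 2.38 and 3.69 in B220+ cells, against -0.61, -1.40 and -0.43 in WT CLPs (difference 4.00 ± 0.46, adjusted p = 0.00276), and H2-Aa, a class II chain, was higher by 2.66 (adjusted p = 0.0219). Clec9a, a lectin of cross-presenting dendritic cells, and Itgax, CD11c, were lower by 4.31 and 3.12. Siglech, a lectin of plasmacytoid dendritic cells, had levels of 5.47, 5.70 and 5.52 in B220+ cells, against 6.07, 6.27 and 5.70 in WT CLPs, and did not pass (difference -0.45, 95% interval -1.18 to 0.28, adjusted p = 0.431). A second, dimmer Siglech probe, well above background on all 6 arrays, had levels of -0.51, -1.11 and -1.17 in B220+ cells, against 5.07, 3.12 and 3.67 in WT CLPs, and passed (difference -4.88 ± 0.53, adjusted p = 0.00207), so the 2 probes disagree. Plasmacytoid dendritic cells also carry B220, and their part in the results was not tested. The 3 higher genes became 1 without WT CLP array 2 or 3, H2-Aa being lost in both cases, and Itgax was lost without WT CLP array 3. Of 20 T-lineage genes, 4 were lower, among them the kinase Lck, at 1.40, 1.68 and 2.46 in B220+ cells, against 5.40, 5.00 and 4.89 in WT CLPs (adjusted p = 0.00296), and 2 were higher, Il2ra and Cd3d. The summed level of T-lineage genes was 15.9 to 28.3 in B220+ cells, against 55.4 to 80.1 in WT CLPs. Of 16 NK genes 2 were lower, Ccl5 and Klrb1c, and neither passed without WT CLP array 2 or 3. Of 19 erythroid and megakaryocyte genes 3 were lower, with summed levels of 7.90 to 28.6 in B220+ cells and 26.2 to 37.6 in WT CLPs, which overlapped; 1 of the 3 passed without B220+ array 1 or 2 or WT CLP array 2 or 3. Of 9 endothelial markers 4 (44.4%) were lower: Robo4, a guidance receptor that haematopoietic stem cells also carry, was not well above background on any B220+ array and at least 51.6-fold lower (adjusted p = 0.000393), and Emcn, Cdh5 and Esam, of the endothelial surface, were lower too. Cdh5 and Esam did not pass without B220+ array 1 or any WT CLP array. Of 14 stromal markers Sparc passed, as lower (7.14%), near the share over all genes. Sparc was lost without WT CLP array 1 or 2 or B220+ array 1 or 2.

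Amino-acid response genes, which cells switch on through the factor Atf4 when amino acids run short or the endoplasmic reticulum is stressed, were higher in B220+ cells. Of 19 tested, 8 (42.1%) were higher and 0 lower, with a median log2 difference of 1.51 and 17 of 19 differences above 0. The promoters of Asns and Chac1 are shown because these genes were both strongly higher and both hold TGATGNAA; this sequence, where C/EBP and Atf4 bind as a pair, is found in many such genes. They are the 250 bases before the transcription start in RefSeq's annotation of GRCm38.p6, written 5′ to 3′ on the gene's strand, with the match in capitals. Asns lies at chr6:7693210-7693459 on the minus strand, and Chac1 at chr2:119350992-119351241 on the plus strand, where the match is on the opposite strand and so reads in reverse complement.
Asns: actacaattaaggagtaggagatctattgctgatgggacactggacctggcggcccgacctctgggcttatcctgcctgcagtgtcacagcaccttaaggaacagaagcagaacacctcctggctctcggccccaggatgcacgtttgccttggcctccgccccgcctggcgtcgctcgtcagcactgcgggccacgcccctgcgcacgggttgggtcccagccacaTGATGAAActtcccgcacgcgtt
Chac1: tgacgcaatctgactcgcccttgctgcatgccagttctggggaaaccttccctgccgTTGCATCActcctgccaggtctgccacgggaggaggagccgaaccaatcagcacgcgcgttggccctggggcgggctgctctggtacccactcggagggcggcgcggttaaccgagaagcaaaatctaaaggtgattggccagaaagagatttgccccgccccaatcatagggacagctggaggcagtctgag
TGATGNAA, searched on both strands, was found in 3 of the 16 list genes with such a window (Asns, Chac1 and Vldlr), in 2 of the 5 of these that were higher, and in 3.91% of all 27025 genes with a window. Of 3 other motifs searched by the same means, the sterol regulatory element was found in 1 of 13 sterol genes (1.22% of all genes), the interferon-stimulated response element in 9 of 17 interferon-response genes and 0 of the 5 lower ones (3.46% of all genes), and an Ebf-type palindrome in 0 of 16 pre-B genes (0.914% of all genes). All 4 motifs were chosen after the values were seen, and a match describes the letters only.

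Asns, asparagine synthetase, had levels of 4.88, 4.99 and 5.46 in B220+ cells, against -0.61, -0.17 and -0.02 in WT CLPs, and was 41.6-fold higher (adjusted p = 0.00034). Chac1, which breaks down glutathione, had levels of 2.78, 2.99 and 4.25 in B220+ cells, against -2.71, -3.13 and -3.74 in WT CLPs, and was 92.7-fold higher (adjusted p = 0.000515). Cth, which makes cysteine, had levels of 3.81, 4.05 and 4.42 in B220+ cells, against -2.35, -1.60 and -1.97 in WT CLPs, and was 67.0-fold higher (adjusted p = 0.000314). The 3 genes were well apart between the groups on every array. The other higher members were Shmt2 and Mthfd2, of mitochondrial folate metabolism, with differences of 2.88 and 2.48, Aldh1l2 (4.50), the amino-acid carrier Slc7a5 (2.15) and Trib3 (3.62), an inhibitor of Atf4. Atf4 itself had levels of 6.37, 6.56 and 6.82 in B220+ cells, against 6.18, 6.56 and 5.74 in WT CLPs, and did not pass (difference 0.42, adjusted p = 0.512). None of 19 members passed between B220+ cells and either MPP group. Few of all genes did, 2.44% against Bach2-vector MPPs and 6.54% against control-vector MPPs, so this count is near the share over all genes. Asns differed from Bach2-vector MPPs by 0.16 (adjusted p = 0.806) and from control-vector MPPs by 0.29 (adjusted p = 0.604). At an unadjusted p under 0.05, 1 of 19 differed in each of these limma comparisons. Against WT CLPs, Aldh1l2, Mthfd2 and Trib3 no longer passed without WT CLP array 2 or 3, nor Slc7a5 without WT CLP array 3, which left 5 and 4 of the 8; Mthfd2 was also lost without B220+ array 1 or WT CLP array 1.

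Some sterol synthesis and glycolysis genes were also higher in B220+ cells. Of 21 sterol synthesis genes, 6 (28.6%) were higher and 0 lower, with a median log2 difference of 0.99 and 20 of 21 above 0. Lss, lanosterol synthase, had levels of 0.55, 0.59 and 0.84 in B220+ cells, against -1.93, -1.44 and -1.41 in WT CLPs (difference 2.25 ± 0.32, adjusted p = 0.00639). Hmgcs1, an early enzyme of the path, had levels of 5.80, 6.55 and 5.36 in B220+ cells, against 3.98, 4.38 and 4.00 in WT CLPs (difference 1.78 ± 0.39, adjusted p = 0.0367). Both genes were higher on every B220+ array than on any WT CLP array, but Hmgcs1 passed only with all 6 arrays or without B220+ array 3, and 1 sterol gene passed without B220+ array 2 or WT CLP array 2, and 2 without B220+ array 1, WT CLP array 1 or WT CLP array 3. Of 22 glycolysis and hypoxia-response genes, 4 (18.2%) were higher and 0 lower, with a median difference of 0.71. Pfkp, a phosphofructokinase of glycolysis, was 12.2-fold higher (adjusted p = 0.0013), with B220+ levels of 3.04, 3.14 and 3.43, against -0.87, -0.38 and 0.02 in WT CLPs, and Slc16a3, a lactate exporter, was higher by 2.55. The 4 became 2 without B220+ array 1 or any WT CLP array. Against either MPP group, 0 of 21 sterol genes passed. Of the 22 glycolysis genes, 1 was higher and 0 lower than in Bach2-vector MPPs (0.928% and 1.52% of all genes). Against control-vector MPPs, 2 were higher and 3 lower (2.88% and 3.66% of all genes).

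Immediate-early genes, which answer growth factor and stress signals within minutes, were lower in B220+ cells. Of 23 tested, 8 (34.8%) were lower and 0 higher, with a median log2 difference of -1.09. Egr1, a zinc finger factor of this class, had levels of 1.28, 2.06 and 2.83 in B220+ cells, against 6.25, 6.86 and 5.47 in WT CLPs, and was 17.6-fold lower (adjusted p = 0.004). Fos, a part of the AP-1 factor, had levels of 2.04, 2.18 and 4.37 in B220+ cells, against 5.81, 6.41 and 5.48 in WT CLPs (difference -3.04, adjusted p = 0.0328). Egr1 and Fos were lowest on the first 2 B220+ arrays, and neither gene overlapped between the groups; the call of Fos was lost without any array but B220+ array 3. Of the 8 genes 1 passed without WT CLP array 2, 2 without B220+ array 1, B220+ array 2 or WT CLP array 1, and 5 without WT CLP array 3, whereas 12 passed without B220+ array 3. Against MPPs, Egr1 differed from the Bach2-vector cells by 1.58 (adjusted p = 0.127) and was higher than in control-vector cells by 2.58 (adjusted p = 0.0427).

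Interferon-response genes were lower as well, with 7 of 20 tested (35.0%) lower, 0 higher, a median log2 difference of -2.02 and 1 difference above 0. Ifi44 had levels of -6.73, -6.29 and -6.07 in B220+ cells, where it was well above background on 1 array, against 0.34, -0.28 and 0.32 in WT CLPs (difference -6.49 ± 0.35, adjusted p = 0.000272). Oasl2, of the oligoadenylate synthetase family, had levels of -1.41, -1.71 and -1.48 in B220+ cells, against 2.09, 1.51 and 2.08 in WT CLPs, a difference of -3.43 ± 0.32 (adjusted p = 0.00117). Both stayed apart between groups on all arrays, and Oasl1, its relative, was 26.4-fold lower (adjusted p = 0.00298). Irf9, a part of the factor that acts at these genes, was lower by 1.53 (adjusted p = 0.0331), and lost without any array but B220+ array 3. Oasl2 levels in Bach2-vector MPPs were 0.09, -0.65 and 1.09 and in control-vector MPPs -2.01, -0.91 and -1.57, and neither comparison with B220+ cells passed. Without WT CLP array 2, 3 of the 7 passed, and without B220+ array 3, 10.

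**Figure D5:**
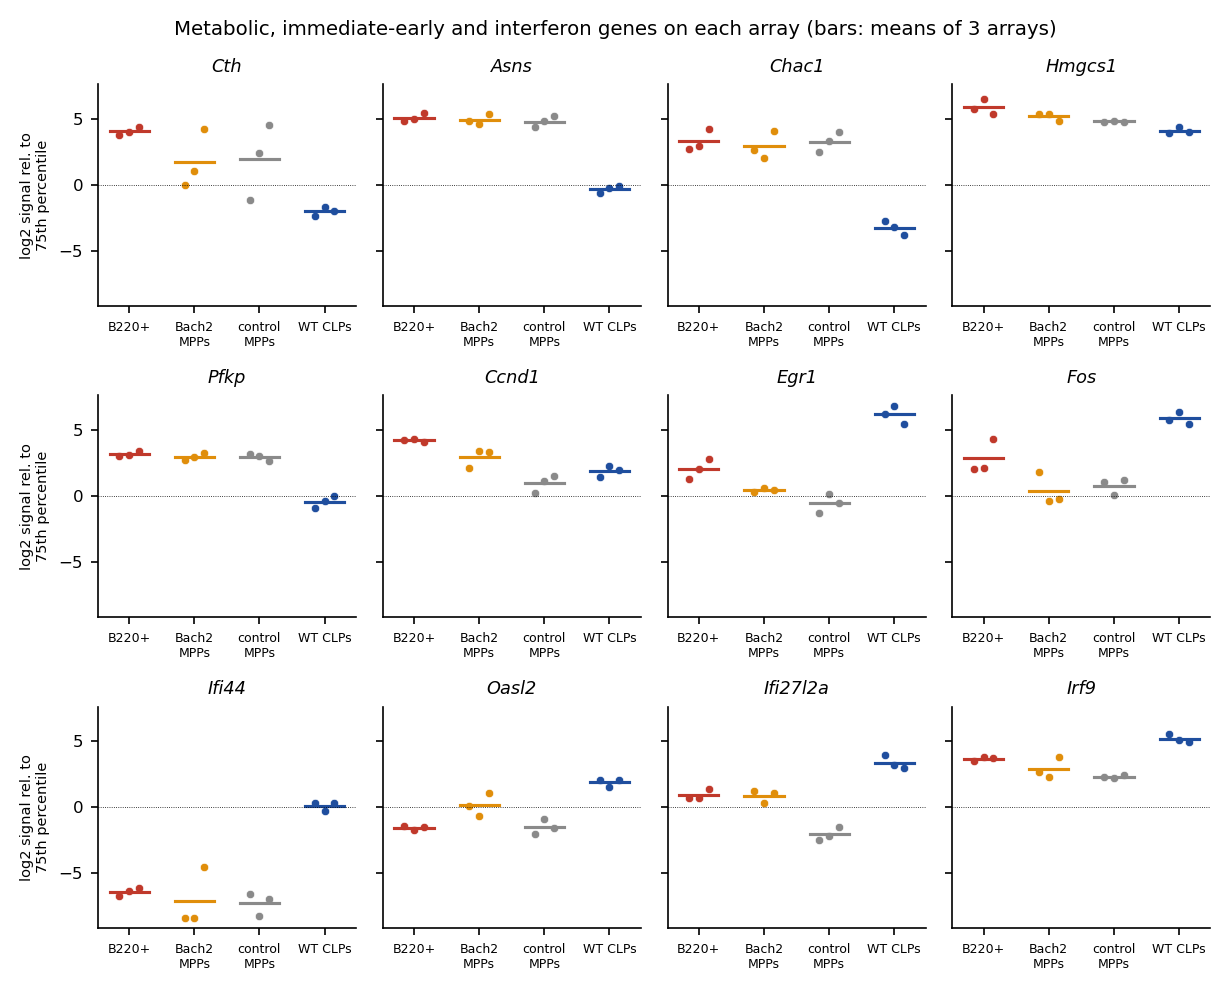
Levels of 12 metabolic, immediate-early and interferon-response genes on each array (points) with group means (bars), in log2 units relative to the array's 75th percentile, for B220+ Bach2-vector cells, Bach2-vector MPPs, control-vector MPPs and WT CLPs. Asns and Chac1 are high in all 3 cultured groups, and Egr1, Fos, Ifi44 and Irf9 are higher in WT CLPs than in B220+ cells.

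Genes of DNA replication and mitosis did not separate the groups by the test: 0 of 28 passed in limma's test, against 9.71% of all genes. Their median log2 difference was 0.55, with 22 differences above 0, and 9 had an unadjusted p under 0.05. With all 15 CLP and MPP arrays in the fit, 4 passed as higher. Mki67, a marker of cycling cells, averaged 5.05 ± 0.42 in B220+ cells and 4.58 ± 0.30 in WT CLPs (adjusted p = 0.465). Ccnd1, cyclin D1, was the member that passed by its brightest probe among 13 D cyclins and kinase inhibitors, at 4.26, 4.33 and 4.11 in B220+ cells, against 1.43, 2.31 and 1.98 in WT CLPs, 5.02-fold higher (adjusted p = 0.00783). Dimmer probes of Cdkn1a and Ccnb1, well above background on all 6 arrays, passed as higher where the brightest did not. Their differences were 3.34 (adjusted p = 0.0133) and 1.91 (adjusted p = 0.0203) in limma's test. Of 29 heme, iron and oxidative-stress genes, among which Bach1 targets are known, 3 were lower (10.3%) and 0 higher. Over all genes 6.12% were lower and 3.59% higher. Without WT CLP array 2, 1 of this list was lower. Srxn1, sulfiredoxin, had levels of -2.22, -2.99 and -2.85 in B220+ cells, against -0.00, 0.88 and 0.72 in WT CLPs (difference -3.22 ± 0.39, adjusted p = 0.00325). Its levels in control-vector MPPs were 3.82, 3.69 and 3.19, from which B220+ cells differed by -6.25 ± 0.33 (adjusted p = 0.00128). Hmox1, heme oxygenase 1, averaged -0.84 ± 0.37 in B220+ cells and -1.63 ± 0.14 in WT CLPs and did not pass (difference 0.79, adjusted p = 0.2). Of 17 homing and chemokine receptor genes, 5 (29.4%) were higher, among them Ccr6 (difference 3.92, adjusted p = 0.00952) and Gpr183 (4.20, adjusted p = 0.0121), receptors that guide B cells. That count was 0 without WT CLP array 3 and 1 without WT CLP array 2.

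Some of the genes with the largest fitted differences lay outside these lists. Stc2, a secreted stress-response protein, had levels of 1.45, 1.43 and 2.77 in B220+ cells, against -6.89, -7.85 and -7.98 in WT CLPs, where it was well above background on 1 of the 3 arrays (difference 9.46 ± 0.49, adjusted p = 0.000272). Nupr1, a nuclear stress protein, had levels of 1.61, 2.16 and 4.27 in B220+ cells, against -6.18, -6.21 and -4.18 in WT CLPs, and Tgm2, a transglutaminase, was higher by 8.19 ± 0.89 (adjusted p = 0.00207). Oosp1 (difference 8.71), Clec4b2 (8.60), Mogat2 (7.82), Chst13 (7.66) and Slamf9 (7.65) were also among the 12 largest rises, with Oosp2, Ms4a3, Ms4a2 and Cd2. Oosp1 and Clec4b2 were well above background on 1 of the 3 WT CLP arrays, and Nupr1, Mogat2, Chst13, Slamf9 and Cd2 on 2, so the sizes of these rises rest in part on levels near background. The largest fall by the fitted difference was that of Sytl4, a protein of secretory granules, which was not well above background on any B220+ array and at least 328-fold lower (adjusted p = 0.00022). Dcaf12l1 was at least 237-fold lower and Mpped2 at least 138-fold lower on the same ground. Slc35d3, a carrier of platelet granules, and Emp1, a membrane protein, were also among the 12 largest falls. Their B220+ levels varied: -1.35, -2.61 and -8.18 for Slc35d3, against 4.87, 5.80 and 5.04 in WT CLPs, and -1.30, -0.64 and -8.31 for Emp1, against 5.94, 5.93 and 5.48 in WT CLPs. Array 3 was by far the lowest of the B220+ arrays for both, and all 3 B220+ arrays lay below the WT CLP arrays (adjusted p = 0.0131 for Slc35d3 and 0.0242 for Emp1). Neither passed without WT CLP array 2 or 3, nor Emp1 without WT CLP array 1. The list ends with Rag1, Slc18a1, Ddx4, Synpo2, Egr4, Rgs8 and Spaca1, of which Rag1 belongs to the lists above. For Chst13, Ets1, Flt3, Ikzf1, Rgs8, Slc7a5, Sparc, Synpo2, Tnfrsf13c and Zfp521, the brightest probe passed and another tested probe of the gene did not. The reverse, where a dimmer probe passed and the brightest did not, held for other list genes, among them Anxa1, Ccnb1, Cd27, Cdkn1a, Fes, Il18r1 and Siglech.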

How the data were processed

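The series holds 21 Agilent mouse arrays in 1 colour, with 62976 spots each, 3671 of them controls. The deposited files hold background-corrected processed spot intensity values, made by the authors with Feature Extraction, version 10.7.3.1 per the file headers and 9.1 per the submitters' processing notes. The authors deposited no log2 values: log2 intensities minus each array's 75th percentile were computed here, spots marked as outliers were dropped, and the remaining spots of each probe averaged. Probes were tested where at least 3 of the 6 arrays were well above background and each group had 2 values. Of 55681 probes, 26407 were named through RefSeq accessions (GRCm38.p6) to 20014 genes; 29274 stayed unnamed. A gene is its brightest probe over the 6 arrays; of 4043 genes with several tested probes, 0 had opposite calls.

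Groups were compared with limma 3.58.1 in R 4.3.3 (with the package data.table, version 1.17.8) on the 6 arrays, with Benjamini-Hochberg adjustment over 40701 probes and a threshold of 0.05. Comparisons with MPPs used the same fit on their own arrays and share arrays with it. Files were read with pandas 2.3.3 and numpy 2.4.6 in Python 3.11.15, and figures drawn with matplotlib 3.10.9. No gene probe was saturated (0), and 0 array pairs were identical. On simulated data with 40489 probes, 50 probes were changed at each of 4 folds. Of these, 0% of 2-fold, 18% of 4-fold, 50% of 8-fold and 70% of 16-fold changes were recovered, and 4 of 73 calls were false. In the real data 2870 probes passed. The adjustment is stricter where fewer probes change, so these rates need not hold for the real comparison.

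The comparison, the 29 gene lists and the naming rule were chosen with earlier results of these data known. The rule names Bach1, Bach2, the 12 largest rises and 12 largest falls (passed, at least 2-fold, groups separated, above background on all arrays of the higher group), the 4 smallest-p members per list, and members of the B-lineage factor and pre-B lists. Other list genes named were chosen after their values were seen. A few genes that the rule or the lists cover are not reported here. Same-numbered arrays of the 2 groups did not deviate together (correlations -0.10, 0.05 and -0.05), so the numbers were not taken to pair them. Alternatives covered scaling, background correction, filter, arrays in the fit, variance trend, slide, replicate number, probe summary and each array left out.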

Additional observations from a re-analysis of the deposited data

How the results depend on the processing

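The number of probes and genes that passed, 2870 and 1577, stayed within 1.5 times under quantile normalization (2671 and 1483), normexp correction of the median signals (2984 and 1756), median centring, the deposited value table, both filters, a variance trend and all 15 CLP and MPP arrays in the fit. With the slide as a random block it was 1694 probes and 978 genes over 6 arrays, and 1821 probes over 15 arrays. With the replicate block, whose numbers do not pair these samples, 1545 probes and 899 genes passed. Leaving out an array in turn gave 1147 to 3317 probes and 687 to 1773 genes, lowest without WT CLP array 2 and highest without B220+ array 3. Of 116 genes passing under the naming rule, 73 passed in every alternative that could test them and 0 changed direction. Zbtb46, which did not pass, turned positive and passed as the mean of its probes (2.16, adjusted p = 0.0102). Of the lists, granulocyte genes had 14 members higher with normexp and 16 with all 15 arrays, against 9, and immediate-early genes had 3 lower with the slide as a random block over 6 arrays, against 8. Scalings moved the median log2 difference over probes between -0.15 (75th percentile), 0.00 (quantile), -0.04 (median centring) and 0.16 (normexp); genes are reported relative to the 75th percentile. Normexp on the mean signal was not run because the files used here hold median signals; the median-signal form was chosen after seeing the data. The cause of these shifts was not tested. With 3 arrays a group, differences under about 2.4-fold were not called, and genes near background have levels set by few units of signal.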

Other observations

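Some genes of other roles also differed between B220+ Bach2-vector cells and MPPs. Among genes of NK and innate lymphoid cells, 3 of 17 tested were higher in B220+ cells than in Bach2-vector MPPs (0.928% of all genes). Against control-vector MPPs, 5 of 16 were higher (2.88% of all genes). Against WT CLPs, 0 of 16 were higher (3.59% of all genes), and 2 with normexp correction. Il18r1, the receptor for IL-18, was higher than in Bach2-vector MPPs by 5.43 (adjusted p = 0.0216) and than in control-vector MPPs by 7.95 (adjusted p = 0.0121), on the log2 scale by limma. It was well above background on 3 Bach2-vector and 2 control-vector MPP arrays. Against WT CLPs, its brightest probe did not pass (difference 1.06, adjusted p = 0.114), whereas a dimmer one passed as higher (1.51, adjusted p = 0.0472). Fcrla, a B-cell Fc receptor-like protein, was higher than in Bach2-vector MPPs by 4.64 (adjusted p = 0.0434), where it was well above background on 2 of the 3 arrays. The Y-linked gene Eif2s3y had levels of 4.26, 4.43 and -8.30 in B220+ cells, against 3.88, 1.58 and 1.90 in WT CLPs, while Xist had levels of -5.46, -5.49 and -2.13 in B220+ cells, against -3.62, -2.30 and -1.09 in WT CLPs. These genes were chosen after their values were seen.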
